A study of Mus musculus with 27 samples.

Results

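Tumour necrosis factor (Tnf), its receptors Tnfrsf1a and Tnfrsf1b, its sheddase Adam17 with the partner Rhbdf2, and the receptor-proximal proteins Traf2, Tradd and Ripk1 were followed through total RNA and anti-HuR pull-downs of activated macrophages. These 8 genes were taken by symbol from the 55483 genes of the counts table, all 8 were found, and all 8 passed the filter on low counts in every comparison. The cells were RAW264.7, an established mouse macrophage line, treated for 6 h with DMSO (the solvent), with LPS (lipopolysaccharide, a component of the outer membrane of Gram-negative bacteria, at 1 µg/ml) together with DMSO, or with LPS and TM7nox at 10 µM. TM7nox is one of the tanshinone mimics, compounds made to interfere with RNA binding by HuR, the protein encoded by Elavl1. Each sample came from about 30000000 cells. RNA-seq was run on total RNA and on RNA recovered by ribonucleoprotein immunoprecipitation (RIP) with an anti-HuR antibody, in 4 libraries per treatment each, and on RNA recovered with control IgG in 1 library per treatment. All comparisons are within 1 cell line, and no group was given TM7nox without LPS. Nothing in the labels says that the replicates were separate cultures, so p-values measure only the spread between these samples, which may be technical.

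Tnf is made as a trimer in the plasma membrane, from which Adam17 releases the soluble cytokine after Rhbdf2 (iRhom2) has carried Adam17 to the cell surface and kept it active there. Soluble Tnf acts mainly through Tnfrsf1a (TNFR1), which assembles Tradd, Traf2 and the kinase Ripk1 to start NF-κB and MAP kinase signalling or cell death, while Tnfrsf1b (TNFR2) has no death domain and binds Traf2 directly. Tnf mRNA is a textbook case of control through AU-rich elements in the 3′ untranslated region (UTR), where stabilising proteins such as HuR and destabilising proteins such as Zfp36 can bind.

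The 3′ UTRs of the 8 genes differed widely in such elements. The AU-rich pentamer ATTTA was searched on the transcript strand of the longest UTR in the GENCODE M39 annotation (build GRCm39). A longer motif that holds the pentamer within it, the heptamer TATTTAT, was searched in the same way. Tnf, with a UTR of 764 bases, held 8 pentamers, and all 8 lay within heptamers. Among 988 tested coding genes with UTRs within 20% of that length, 0.101%, which is Tnf alone, held as many heptamers. Ripk1 held 7 pentamers and 5 heptamers in 4365 bases. Of 1571 genes with UTRs of similar length, 1.97% held at least as many heptamers, but 51.4% at least as many pentamers. Tnfrsf1b held 5 pentamers in 3419 bases, a number reached by 58.8% of 2060 genes with UTRs of similar length. Rhbdf2 held 1 in 1272 bases and Traf2 held 1 in 1430 bases, and no pentamer of these 3 genes lay within a heptamer. Tnfrsf1a (496 bases), Adam17 (1842 bases) and Tradd (1820 bases) held neither motif in the longest UTR, while the shorter canonical UTRs of Adam17 and Tradd held 1 pentamer each. Of 11158 tested coding genes, 78.7% held the pentamer and 36.2% the heptamer, at a median UTR length of 1876.5 bases. The densest 30 bases of Tnf and Ripk1 are shown because they carry the overlapping motifs, at chr17:35418655-35418684 on the minus strand and chr13:34219839-34219868 on the plus strand, with the pentamers in capitals.
Tnf: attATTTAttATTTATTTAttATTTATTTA
Ripk1: cagtatcctatctatctATTTATTTATTTA

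A second pair of sequences is shown because Rhbdf2 and Adam17, which act together at the membrane, had the most U-rich stretches of the 8 UTRs and lay on opposite sides of both total RNA and IgG in the anti-HuR RIP. Windows of 30 bases were ranked by their number of T (U in the RNA), and this search was added after the expression values had been seen. The Adam17 window, at chr12:21374858-21374887 on the minus strand, held 27 T, a number reached by 3.16% of 1991 genes with UTRs of similar length. The Rhbdf2 window, at chr11:116489082-116489111 on the minus strand, held 25 T, a number reached by 7.93% of 1488 such genes. In the other 6 genes the richest window held 16 to 22 T. Capitals mark the T bases.
Adam17: TTTTgTTTTTgTTTTTgTTTTTTTTTTTTT
Rhbdf2: gTTTTTTggTTTTgTTTTgTTTTTTTTTTT

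**Figure D1:**
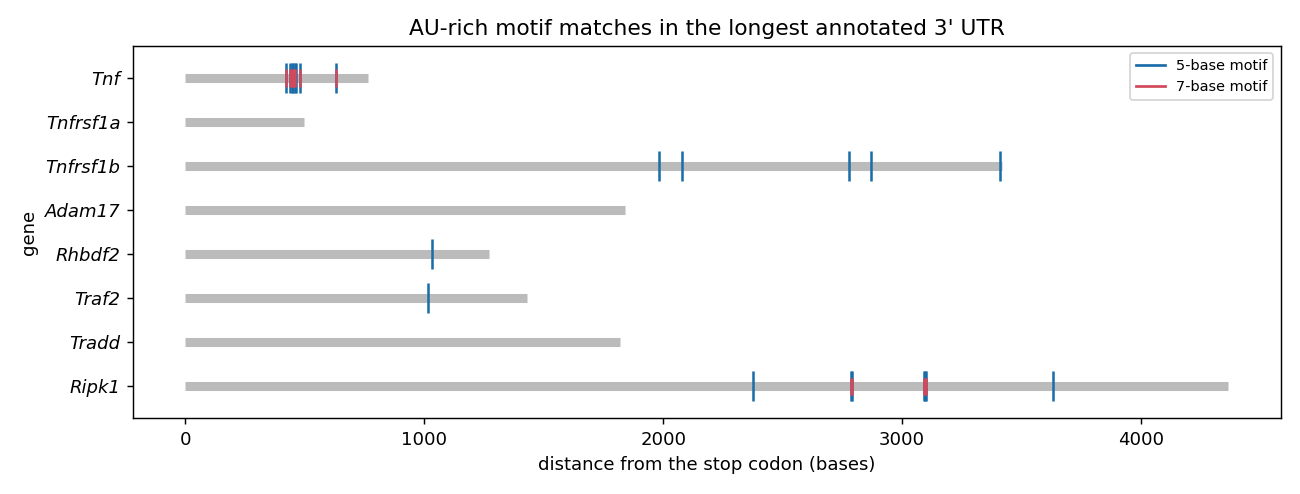
Positions of AU-rich motif matches (blue, the pentamer; red, the heptamer) along the longest annotated 3′ UTR of each gene, in bases from the stop codon; grey bars give the UTR length. Tnf holds 8 matches to each motif within 764 bases and Ripk1 holds 5 of the longer motif within 4365 bases.

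The RNA libraries held 2728534 to 28285856 counts, the RIP libraries 19816312 to 41449233 and the IgG libraries 8873091 to 24513902. RNA DMSO replicate 1 was the shallowest, and the next RNA library held 16258731. All 8 macrophage markers averaged at least 5 CPM (counts per 1000000 of the TMM-adjusted library size), and together they reached 3330 to 6886 CPM in each RNA library. The T cell, B cell, fibroblast and epithelial markers summed to at most 0.385 CPM in any RNA library, with Epcam and Krt8 at 0 in all 12. The lowest count of any of the 8 genes was 34 reads, for Tradd in RNA DMSO replicate 1. Reads without molecular identifiers can be copies of 1 molecule, so counts overstate the number of molecules seen.

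Tnf (ENSMUSG00000024401, chromosome 17, 35418357 to 35420983, minus strand) was low in resting cells and high after LPS. In total RNA it stood at 54.1, 76.7, 43.2 and 36.5 CPM in DMSO replicates 1 to 4 and at 576, 754, 668 and 708 CPM in LPS. With LPS and TM7nox it stood at 796, 783, 1159.6 and 1224 CPM. Every LPS library lay above every DMSO library, and every library with TM7nox lay above every LPS library. The increase from DMSO to LPS was 12.6-fold (log2 fold change 3.65, SE 0.241, FDR 4.23e-08 in edgeR's quasi-likelihood test), and in bulk RNA a change in the number of expressing cells and a change in RNA per cell cannot be told apart. By log2 fold change Tnf ranked 285th from the top of the 12369 genes tested. From LPS to LPS with TM7nox the difference was 0.55 on the log2 scale (95% interval 0.09 to 1.02), which did not pass the threshold (FDR 0.114) although all 4 same-numbered differences were positive, from 0.05 to 0.80. This Tnf difference was called in 2 of 15 alternatives, with no filter (0.56, FDR 0.0108) and in replicates 3 and 4 alone (0.81, FDR 0.000294).

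Tnf in the anti-HuR RIP followed another course. It stood at 538, 756, 541 and 476 CPM in DMSO replicates 1 to 4 and at 648, 482, 455 and 511 CPM in LPS. With TM7nox it stood at 2574, 638, 993 and 1629 CPM. The DMSO and LPS values overlapped, and the TM7nox values spread over a wider range than any other group of the 8 genes (coefficient of variation 58.2%). The RIP difference from DMSO to LPS was -0.16 (95% interval -0.86 to 0.53, FDR 0.711), beside the RNA increase of 3.65. With library totals in place of TMM the RIP difference was -0.78 (FDR 0.0685), also not called. From LPS to LPS with TM7nox the RIP level rose 2.70-fold (log2 1.43, SE 0.335, FDR 0.00867), with all 4 same-numbered differences positive, from 0.41 to 1.99. The lowest TM7nox library (replicate 2) lay just below the highest LPS library (replicate 1). Without the highest library, TM7nox replicate 1, the change was 1.02 (FDR 0.0255), and in replicates 1 and 2 alone it was not called (1.47, FDR 0.135).

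**Figure D2:**
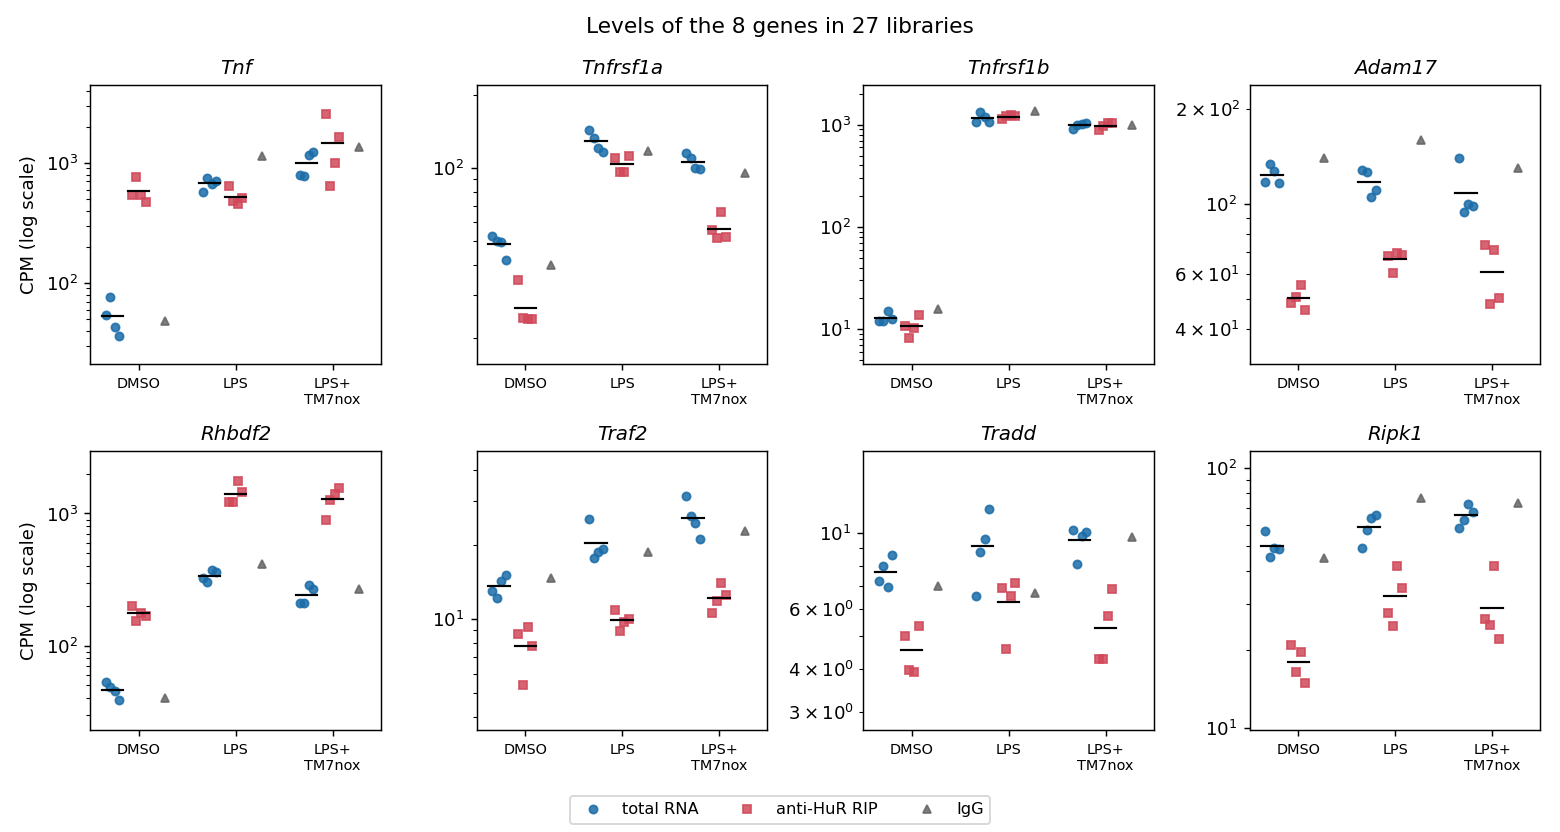
Levels of the 8 genes in CPM (log axis) by treatment; circles are total RNA, squares anti-HuR RIP and triangles IgG, 1 symbol per library, with a bar at the mean of 4 libraries. Tnf stands at 36.5 to 76.7 CPM in DMSO total RNA against 476 to 756 CPM in the anti-HuR RIP of the same treatment, while in LPS the ranges overlap.

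The recovery of Tnf by anti-HuR relative to total RNA therefore differed between resting and activated cells. The log2 ratio of RIP to same-numbered RNA was 3.31, 3.30, 3.65 and 3.70 in DMSO, 0.17, -0.65, -0.55 and -0.47 in LPS, and 1.69, -0.29, -0.22 and 0.41 with TM7nox. The 4 DMSO ratios lay far above all others. TMM scaling sets the typical gene to about 0 in such a ratio, so it is a level relative to other genes and carries no absolute scale. In DMSO the recovery was 11.97-fold above RNA (log2 3.58, SE 0.338, FDR 9.43e-10). In LPS it was -0.36 (95% interval -0.99 to 0.26, FDR 0.303) and with TM7nox it was 0.53 (95% interval -0.10 to 1.16, FDR 0.124). With library totals the DMSO value was 2.79 (FDR 4.43e-08), and the LPS value was called, at -1.35 (FDR 0.000496). The TM7nox value depended on single libraries and on the scaling. It was called with RLE size factors (0.75, FDR 0.0306), in DESeq2 (0.75, FDR 0.0209) and without RIP TM7nox replicate 2 or 3 (0.82 and 0.72). It was 0.16 (FDR 0.619) without RIP TM7nox replicate 1, 0.065 (FDR 0.815) in replicates 3 and 4 alone and -0.40 with library totals.

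The change of this recovery by LPS was itself tested. It was -3.95 on the log2 scale for Tnf (SE 0.447, 95% interval -4.87 to -3.03, FDR 2.45e-05), and the 4 same-numbered changes were -3.14, -3.95, -4.20 and -4.18. Tnf was the only one of the 8 genes called, where 6 of 14311 genes, 0.0419%, were called (0.014% higher and 0.028% lower). Of the others, Tnfrsf1a had an unadjusted p under 0.05 (0.44, p 0.0261, FDR 0.631), and Tnfrsf1a, Tnfrsf1b, Adam17 and Ripk1 were positive in all 4 same-numbered pairs. Those pair values use CPM scaled with the IgG libraries included, while the fit left IgG out, so small values can differ in sign between them. The Tnfrsf1b pair of replicate 4 was 0.067, and its fitted change was -0.0037 with library totals. How many of all genes were positive in all 4 pairs was not counted, so no shared shift is read from these signs. The other 5 genes called were Pola2 (2.55), a DNA polymerase alpha subunit, Eno2 (-3.88), an enolase, Asb1 (-2.84), Slfn2 (1.97) and Seh1l (-1.49), a nuclear pore protein. Tnf had the second smallest p-value and the largest absolute change of the 6. It was called in 22 of 23 alternatives. The exception was replicates 1 and 2 alone, where the change was -3.65 (FDR 0.9999) and no gene of the table was called. RNA DMSO replicate 1, the shallowest library, takes part in this result, and without it the change was -3.89 (FDR 0.000197).

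The IgG libraries bear on how the Tnf ratios are read. IgG held 48.2 CPM of Tnf in DMSO, 1147 in LPS and 1349 in LPS with TM7nox, beside 43.2, 668 and 1159.6 CPM in the total RNA of the same replicate. The log2 ratio of IgG to RNA was 0.16, 0.78 and 0.22, so Tnf was higher with LPS in IgG as it was in total RNA. In LPS the single IgG library lay above all 4 RNA libraries (576 to 754 CPM). In the same replicate the log2 ratio of anti-HuR to IgG was 3.49 in DMSO, -1.33 in LPS and -0.44 with TM7nox. All 4 anti-HuR libraries lay above the IgG library in DMSO and all 4 lay below it in LPS, while with TM7nox replicates 1 and 4 lay above it and replicates 2 and 3 below. With 1 IgG library per treatment, no test within a treatment was made. All 3 IgG libraries were replicate 3, and the fit set them against RIP replicates 1 to 4 without regard to the replicate number. Over all treatments the comparison of anti-HuR with IgG gave 0.10 for Tnf (95% interval -1.01 to 1.203, FDR 0.881), an average over treatments that differed in this way.

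**Figure D3:**
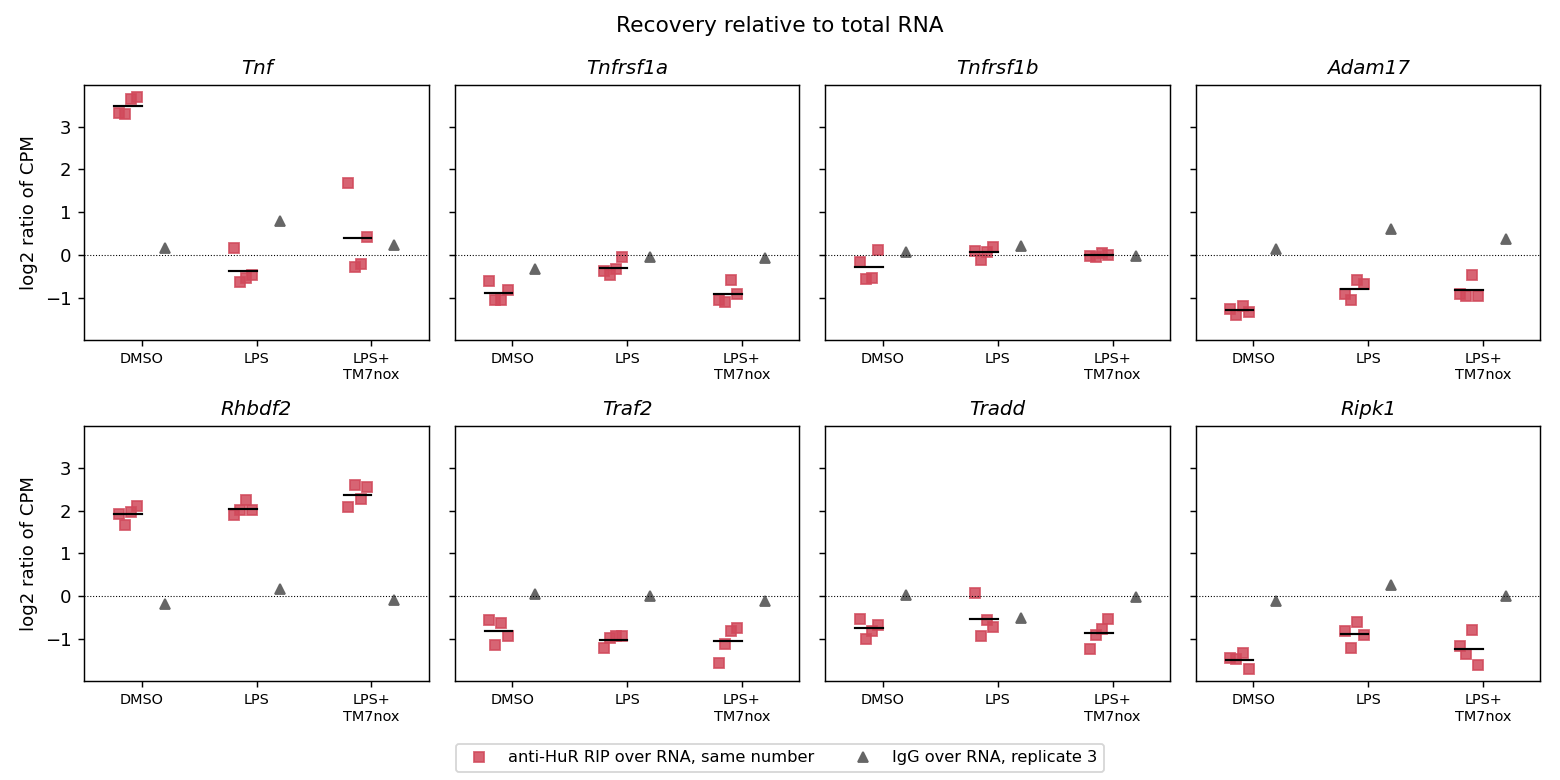
Log2 ratio of CPM of anti-HuR RIP to same-numbered total RNA (squares, 4 per treatment, bar at the mean) and of IgG to total RNA (triangle, replicate 3 only) for the 8 genes; the dotted line marks equal levels. Tnf falls from 3.30 to 3.70 in DMSO to -0.65 to 0.17 in LPS, while Rhbdf2 lies between 1.66 and 2.59 in all 12 pairs.

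The receptors responded to LPS to very different degrees. Tnfrsf1b (ENSMUSG00000028599, chromosome 4, 144938938 to 144973477, minus strand) stood at 12.1, 12.05, 15.0 and 12.6 CPM in DMSO total RNA and at 1065, 1330.0, 1182 and 1069 CPM in LPS. The groups were far apart, and the increase was 87.7-fold (log2 6.45, SE 0.155, FDR 7.04e-12), the smallest p-value of the 12369 genes tested. With TM7nox it stood at 909, 1004, 1016 and 1038 CPM, all below the LPS libraries, but the difference of -0.23 (95% interval -0.48 to 0.03) did not pass the threshold (FDR 0.267). Tnfrsf1a (ENSMUSG00000030341, chromosome 6, 125325566 to 125339632, plus strand) stood at 52.8, 50.3, 49.8 and 42.0 CPM in DMSO and at 144, 134, 122 and 117 CPM in LPS. Its increase was 2.59-fold (log2 1.37, SE 0.121, FDR 6.84e-07), with no overlap. With TM7nox it stood at 116, 110.3, 100.0 and 99.0 CPM, a difference of -0.28 (95% interval -0.53 to -0.03, FDR 0.147) that the fit with the replicate number as a block did call (-0.28, FDR 0.0147).

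In the anti-HuR RIP the receptors kept apart as well. Tnfrsf1b stood at 8.17 to 13.7 CPM in DMSO, 1128 to 1244 CPM in LPS and 889 to 1047 CPM with TM7nox, close to its RNA values in each treatment. Its RIP increase by LPS was 6.79 (SE 0.224, FDR 9.69e-12). From LPS to LPS with TM7nox its RIP level differed by -0.34 (FDR 0.203), not called although the groups did not overlap. Its RIP over RNA was -0.17 in DMSO, 0.053 in LPS and -0.044 with TM7nox, none of them called (95% intervals within -0.50 to 0.37). With library totals in place of TMM all 3 were called lower (-0.95, -0.95 and -1.04). Tnfrsf1a stood at 34.7, 24.1, 23.9 and 23.9 CPM in DMSO RIP, at 109.8, 96.4, 96.4 and 113 CPM in LPS and at 55.7, 51.6, 66.0 and 52.3 CPM with TM7nox. The 3 groups did not overlap. The RIP level of Tnfrsf1a rose by 1.94 with LPS (SE 0.171, FDR 2.14e-07) and fell by 0.93 from LPS to LPS with TM7nox (SE 0.167, FDR 0.00151), a 1.90-fold decrease seen in all 4 same-numbered pairs. The change of its recovery over RNA by TM7nox was -0.63 (unadjusted p 0.00231, FDR 0.871). Recovery of Tnfrsf1a below RNA was called in all 3 treatments, at -0.75 in DMSO, -0.30 in LPS and -0.94 with TM7nox. The LPS value, with FDR 0.0463, lost its call in 12 of 15 alternatives, leaving out any of 7 single libraries among them (FDR 0.0509 to 0.140).

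Of the enzyme Adam17 and its partner Rhbdf2, only Rhbdf2 was called for LPS or TM7nox in total RNA. Adam17 (ENSMUSG00000052593, chromosome 12, 21373510 to 21423672, minus strand) stood at 117, 134, 127 and 116 CPM in DMSO total RNA, at 128, 126, 105 and 111 CPM in LPS and at 139.6, 93.8, 99.6 and 98.3 CPM with TM7nox. The 3 groups overlapped, and neither the LPS difference of -0.10 (95% interval -0.39 to 0.19, FDR 0.578) nor the TM7nox difference of -0.12 (95% interval -0.41 to 0.17, FDR 0.641) was called. Rhbdf2 (ENSMUSG00000020806, chromosome 11, 116488839 to 116517845, minus strand) stood at 52.8, 48.5, 45.4 and 38.8 CPM in DMSO, at 325, 300.3, 371 and 360.4 CPM in LPS and at 210.2, 209, 289 and 266 CPM with TM7nox. Each group lay apart from the others. Rhbdf2 rose 7.16-fold with LPS (log2 2.84, SE 0.153, FDR 6.64e-09) and fell by 0.48 on the log2 scale from LPS to LPS with TM7nox (SE 0.142, FDR 0.0390). That decrease was seen in all 4 same-numbered pairs but sat near the threshold: it lost its call without LPS replicate 1, 3 or 4 or without TM7nox replicate 1, 2 or 4 (FDR 0.0613 to 0.107), and in replicates 1 and 2 alone (-0.58, FDR 0.251).

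In the anti-HuR RIP, Rhbdf2 was the most strongly recovered of the 8 genes in LPS. It stood at 201, 153, 178 and 169 CPM in DMSO, at 1218, 1212, 1757 and 1456 CPM in LPS and at 891, 1259.5, 1392 and 1566 CPM with TM7nox. LPS raised it by 2.98 (SE 0.215, FDR 2.18e-08), and the TM7nox difference was -0.18 (95% interval -0.61 to 0.24, FDR 0.571) with overlapping groups. Recovery over RNA was 2.04 in DMSO, 2.05 in LPS and 2.35 with TM7nox, each called (largest FDR 3.28e-10). Its change by LPS was 0.01 (95% interval -0.50 to 0.52), which excludes a change of the size seen for Tnf. Rhbdf2 stood at 39.9, 413 and 269.8 CPM in IgG, and anti-HuR over IgG in that replicate was 2.16, 2.09 and 2.37. Over all treatments anti-HuR exceeded IgG by 2.02 for Rhbdf2 (SE 0.207, FDR 5.33e-08), and this was called in all 20 alternatives, replicate 3 alone among them.

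Adam17 was recovered below total RNA and below IgG. It stood at 46.1 to 55.4 CPM in DMSO RIP, 60.2 to 69.8 CPM in LPS and 48.0 to 73.8 CPM with TM7nox, against 139.9, 159.6 and 129 CPM in IgG. Every anti-HuR value lay below every IgG value. RIP over RNA was -1.19 in DMSO, -0.81 in LPS and -0.84 with TM7nox, each called (largest FDR 2.79e-05), and anti-HuR against IgG was -1.30 (SE 0.135, FDR 6.59e-08). The RIP level of Adam17 was higher in every LPS library than in any DMSO library, a difference of 0.39 (FDR 0.0593) that the replicate block called (0.39, FDR 0.0154), as did DESeq2 (0.37, FDR 0.0406). With library totals in place of TMM the same difference was -0.23 (FDR 0.355).

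The adaptors and the kinase differed less between DMSO and LPS in total RNA than Tnf, its receptors and Rhbdf2. Traf2 (ENSMUSG00000026942, chromosome 2, 25406097 to 25436987, minus strand), the ubiquitin ligase adaptor of both receptors, stood at 12.9, 12.1, 14.3 and 15.1 CPM in DMSO total RNA, at 25.4, 17.7, 18.7 and 19.2 CPM in LPS and at 31.3, 26.1, 24.5 and 21.0 CPM with TM7nox. The DMSO libraries lay below all others. Traf2 rose 1.46-fold with LPS (log2 0.54, SE 0.160, FDR 0.0141), a call lost with library totals (0.27, FDR 0.275) and in replicates 1 and 2 alone (FDR 0.0918). From LPS to LPS with TM7nox Traf2 differed by 0.35 (FDR 0.175), not called, with all 4 same-numbered differences positive. Tradd (ENSMUSG00000031887, chromosome 8, 105984883 to 105996354, minus strand), the death-domain adaptor of Tnfrsf1a, ranged from 6.54 to 11.7 CPM over the 12 RNA libraries, with overlapping groups. Tradd was not called in total RNA over the 4 replicates; in replicates 3 and 4 alone it was called higher than DMSO in LPS (0.47, FDR 0.0217) and with TM7nox (0.39, FDR 0.0480). Ripk1 (ENSMUSG00000021408, chromosome 13, 34186141 to 34221130, plus strand), the kinase shared by survival and death signalling, stood at 50.2 ± 4.86 CPM in DMSO, 59.0 ± 7.54 in LPS and 65.6 ± 5.99 with TM7nox (SD, n = 4 each). Its RNA difference from DMSO in LPS was 0.20 (FDR 0.220), and in replicates 3 and 4 alone it was called (0.41, FDR 0.00223). With TM7nox the difference from DMSO was called at 0.36 (FDR 0.0289) and lost under 8 of 15 alternatives, among them each omission of DMSO replicate 2, 3 or 4 or TM7nox replicate 3 or 4 (FDR 0.0651 to 0.0896).

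In the RIP the fitted levels of Ripk1, Traf2 and Tradd lay below total RNA in every treatment, with 1 same-numbered pair of Tradd, replicate 1 in LPS, slightly above it (0.074). Ripk1 stood at 20.8, 16.4, 19.6 and 14.9 CPM in DMSO RIP, at 27.6, 24.6, 42.0 and 34.6 CPM in LPS and at 26.3, 24.8, 42.1 and 22.0 CPM with TM7nox, and its rise with LPS was 0.82 (SE 0.211, FDR 0.00506), lost with library totals (0.19, FDR 0.510) and in replicates 1 and 2 alone (0.45, FDR 0.142). RIP over RNA for Ripk1 was -1.36, -0.88 and -1.23 in DMSO, LPS and LPS with TM7nox, beside the 5 heptamers in its UTR. For Traf2 it was -0.70, -1.02 and -1.10, and for Tradd -0.66, -0.55 and -0.89, all called. In replicates 1 and 2 alone the DMSO values of Traf2 and Tradd were not called (FDR 0.0521 and 0.121). The Tradd value in LPS lost its call with RLE size factors (-0.37, FDR 0.0871), in DESeq2, with no filter, in replicates 1 and 2 alone and without RIP LPS replicate 2 or RNA LPS replicate 4 (-0.41 and -0.40, FDR 0.0906 and 0.118). Against IgG, anti-HuR recovery was called lower for Ripk1 (-1.33), Traf2 (-0.93), Tradd (-0.56) and Tnfrsf1a (-0.53). The call of Tradd was lost with no filter and without RIP TM7nox replicate 2, the DMSO IgG library or the LPS with TM7nox IgG library (FDR 0.0505 to 0.150), and that of Tnfrsf1a with no filter (FDR 0.0923).

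Counted over the 8 genes, LPS against DMSO in total RNA gave 5 called higher (Tnf, Tnfrsf1a, Tnfrsf1b, Rhbdf2, Traf2) and 0 lower, where 42% of all 12369 genes tested were called (20.2% higher and 21.7% lower). Their median log2 fold change was 0.96, beside -0.04 over all genes. LPS with TM7nox against LPS in total RNA gave 1 called lower (Rhbdf2) and 0 higher, where 13.8% of all genes were called (7.37% higher and 6.4% lower). LPS with TM7nox against DMSO gave 6 higher, the same 5 and Ripk1, where 47.3% were called (23.7% higher and 23.6% lower). These comparisons share libraries, so they are not independent of each other.

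In the RIP, LPS against DMSO gave 4 higher (Tnfrsf1a, Tnfrsf1b, Rhbdf2, Ripk1) and 0 lower, where 44.7% of 13614 genes were called (23.5% higher and 21.2% lower). With the replicate number as a block 6 were called, the added 2 being Adam17 (0.39, FDR 0.0154) and Tradd (0.44, FDR 0.0337). LPS with TM7nox against LPS gave 1 higher (Tnf) and 1 lower (Tnfrsf1a), where 16.2% were called (8.64% higher and 7.61% lower). LPS with TM7nox against DMSO gave 6 higher (Tnf 1.27, Tnfrsf1a 1.01, Tnfrsf1b 6.45, Rhbdf2 2.80, Traf2 0.58, Ripk1 0.61), where 48.1% were called (25.1% higher and 23.1% lower). Traf2 lost its call without RIP DMSO replicate 2 (0.41, FDR 0.0598), with no filter (FDR 0.0680) and in replicates 1 and 2 (FDR 0.118) or 3 and 4 alone (FDR 0.0687). Ripk1 lost its call in replicates 1 and 2 alone (FDR 0.184) and without RIP DMSO replicate 2 or 4 or RIP TM7nox replicate 3 (FDR 0.0673 to 0.1099). The Tnf groups overlapped in that comparison (476 to 756 CPM against 638 to 2574 CPM), its call was lost in replicates 1 and 2 alone (1.23, FDR 0.0947), and with library totals its difference was 0.68 (FDR 0.105) and that of Tnfrsf1a 0.38 (FDR 0.0963), while those of Traf2 (-0.056) and Ripk1 (-0.0085) changed sign.

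RIP over RNA gave 2 higher (Tnf, Rhbdf2) and 5 lower in DMSO, where 70.4% of 14311 genes were called (37% higher and 33.4% lower). It gave 1 higher (Rhbdf2) and 5 lower in LPS, where 63.7% were called (32.9% higher and 30.8% lower), and the same counts with TM7nox, where 69.9% were called (35.2% higher and 34.8% lower). The change of recovery by TM7nox gave 0 of the 8 genes called in edgeR and 0 in DESeq2, with 2 at an unadjusted p under 0.05 (Tnf 0.89, Tnfrsf1a -0.63), where 0.00699% of genes, a single one, were called. The Tnf value was 0.51 without RIP TM7nox replicate 1. Anti-HuR against IgG gave 1 higher (Rhbdf2) and 5 lower, where 68.1% of 14973 genes were called (33.8% higher and 34.2% lower).

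**Figure D4:**
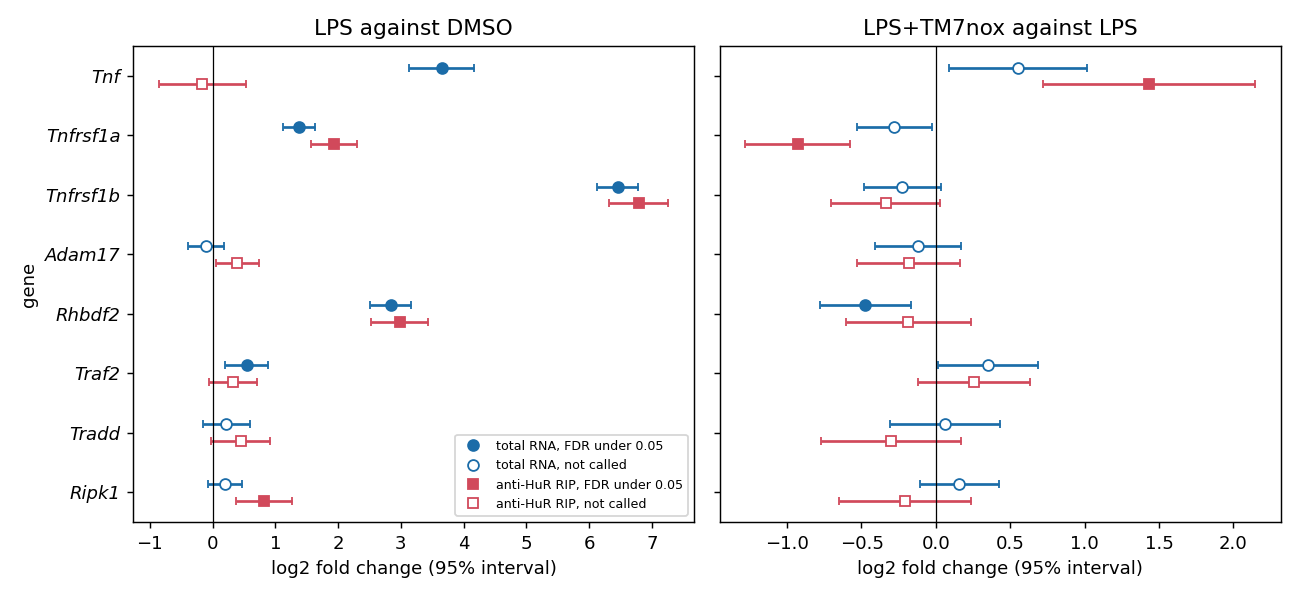
Log2 fold changes with 95% intervals for the 8 genes, LPS against DMSO on the left and LPS with TM7nox against LPS on the right; circles are total RNA, squares anti-HuR RIP, and filled symbols passed an FDR of 0.05. Tnf is the gene whose RNA (3.65) and RIP (-0.16) changes by LPS differ most.

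Per kilobase of exon, Tnf had the highest mean level of the 8 genes in every treatment and assay. The length was that of all annotated exons merged over transcripts (1639 bases for Tnf, 8555 for Adam17), which can exceed that of a single mRNA. The order between genes depends on it: in CPM alone, Adam17 stood at 123 and Tnf at 52.6 in DMSO total RNA. Per kilobase, Tnf stood there at 32.1 ± 10.7 CPM (SD, n = 4), ahead of Tnfrsf1a at 15.5 ± 1.48 and Adam17 at 14.4 ± 1.00, whose ranges do not differ beyond their spread. Rhbdf2 followed at 6.71 ± 0.852, Ripk1 at 4.56 ± 0.442, Tradd at 3.33 ± 0.328, Tnfrsf1b at 2.61 ± 0.279 and Traf2 at 1.77 ± 0.172. In LPS the order was Tnf at 413 ± 46.3, Tnfrsf1b at 235 ± 25.2, Rhbdf2 at 49.1 ± 4.70 and Tnfrsf1a at 40.97 ± 3.89, with Adam17 at 13.7 ± 1.33 and the adaptors and kinase at 2.64 to 5.37. Tnfrsf1b thus moved from the seventh to the second place, and Adam17 from the third to the fifth. In the anti-HuR RIP of DMSO cells, Tnf reached 353 ± 74.7 CPM per kilobase and Rhbdf2 25.4 ± 2.89, with the other 6 genes at 1.01 to 8.47.

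Over the 12 RNA libraries, the genes whose log2 CPM was most like that of Tnf were Tmem106a (Pearson r 0.994), Aftph (0.993) and Lilr4b (0.993) of 8251 genes compared. Among the 8 genes themselves, Tnfrsf1b (0.98) and Rhbdf2 (0.96) came closest to Tnf and Adam17 was negative (-0.41). Over the 24 RNA and RIP libraries the most alike of 8320 genes were Zc3h7a (0.886), Med31 (0.862) and Blcap (0.856), while among the 8 genes Rhbdf2 stood at 0.71, Tnfrsf1b at 0.65 and Tnfrsf1a at 0.26. These values are descriptions: the points share treatments, libraries and scaling.

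Around these genes, 42 others of the pathway were listed by role, and 41 were tested. Timp3, a natural inhibitor of Adam17, was not, with at most 0.513 CPM in any library. In total RNA, LPS against DMSO gave 21 of the 41 called higher and 4 lower, beside 20.2% higher and 21.7% lower over all genes. Of the 4 tested shedding genes, Furin, a convertase that activates Adam17, rose by 3.19 and Adam10, a related sheddase, fell by 0.95. Of the 14 receptor complex and kinase genes, 6 rose and 1 fell, among them Traf1 (4.42), Birc3 (1.68), an inhibitor-of-apoptosis ubiquitin ligase, and Traf5 (1.48) upward and Tab1 (-1.05) downward. The list's median was 0.20 beside -0.04 over all genes.

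Brakes on the pathway rose in 5 of 8 cases (20.2% of all genes were called higher), led by Tnfaip3 (A20, a ubiquitin-editing enzyme, 4.79), Nfkbia (IκBα, 3.21), Tnip1 (2.79) and Tnip3 (1.85). Of the 5 genes of the death arm, 3 rose: Mlkl (2.65), the pore-forming effector of necroptosis, Cflar (2.36), an inhibitor of Casp8, and Casp8 (1.48) itself. Both neighbouring ligands rose, Lta by 2.96 and Ltb by 2.40. Of the 8 RNA-binding regulators, 4 rose and 2 fell. Zc3h12a (Regnase-1, 4.54) and Zfp36 (tristetraprolin, 4.53), which promote decay of Tnf mRNA, rose most, Rc3h1 rose by 0.58 and Tia1 fell by 0.48. Elavl1, which encodes HuR, was not called (0.24, FDR 0.255).

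With TM7nox added to LPS, 1 of the 41 genes was called higher in total RNA and 8 lower, beside 7.37% higher and 6.4% lower over all genes. The brakes made up 4 of the 8: Tnip3 (-1.42), Tnfaip3 (-1.19), Nfkbia (-0.91) and Tnip2 (-0.59). The list's median was -0.61, beside 0.00 over all genes. Ltb (-1.56), Furin (-0.71), Zc3h12a (-0.58) and Hnrnpd (-0.51) were the other 4, and Ikbkg, the regulatory subunit of the IκB kinase, was the 1 called higher (0.85). None of the 5 death arm genes was called. In the RIP, TM7nox against LPS gave 3 higher and 7 lower, beside 8.64% and 7.61% of all genes, with Tnfaip3 (-1.30), Tnip3 (-1.23), Tnip1 (-1.22) and Tnip2 (-0.91) lower. The 3 called higher were Ikbkg (1.24), Rc3h1 (0.82), a decay factor of the roquin family, and Cyld (0.69), a deubiquitinase, the last named after its value was seen. Ltb (-1.77), Zc3h12a (-1.11) and Rbck1 (-0.60) completed the 7.

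**Figure D5:**
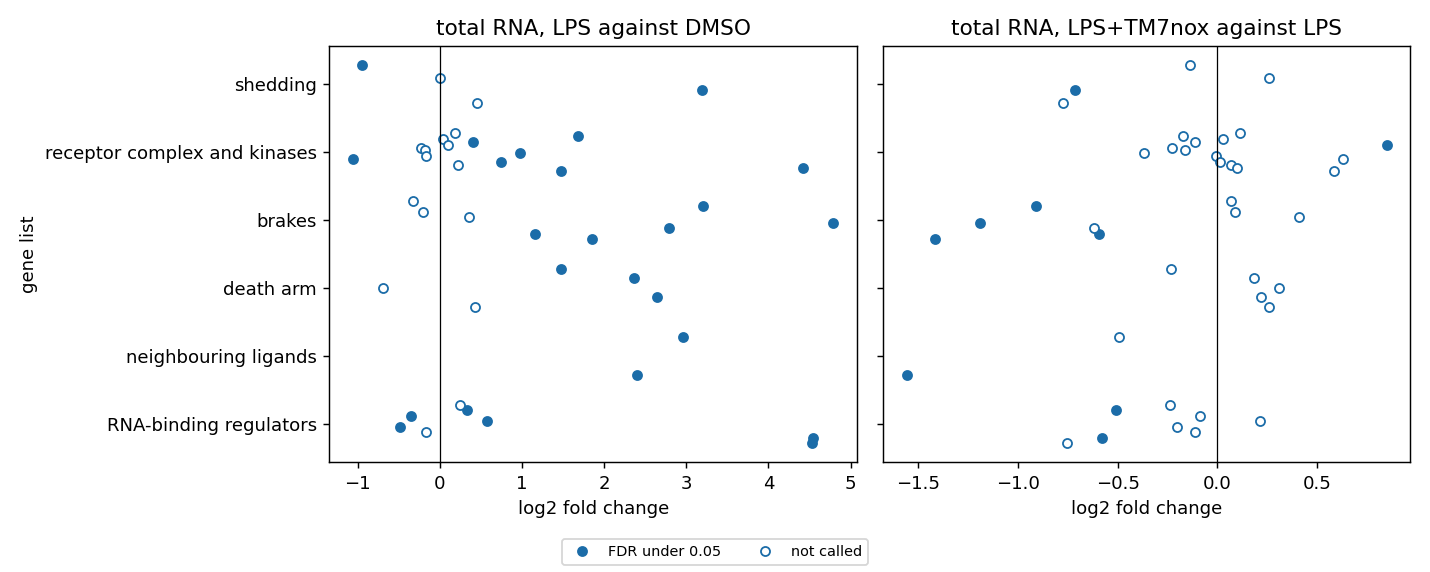
Log2 fold changes in total RNA of 41 pathway genes in 6 lists, LPS against DMSO on the left and LPS with TM7nox against LPS on the right; each circle is 1 gene and filled circles passed an FDR of 0.05. Of the 8 brakes, 5 are filled to the right under LPS and 4 to the left under TM7nox.

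For 6 of the 8 genes, exons overlap those of another gene: Tnfrsf1a with Plekhg6, Tnfrsf1b with Gm68886, Adam17 with Iah1, Rhbdf2 with Gm72364, Tradd with Fbxl8 and Hsf4, and Ripk1 with Gm17084 and Serpinb6a. Whether the counting used the strand is not given in the sources used here, so reads of these overlaps could belong to either gene. Tnf has no annotated overlap, and Traf2 overlaps another gene outside its exons.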

How the data were processed

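Total RNA, anti-HuR RIP and control IgG RNA were sequenced in 27 libraries made with the SMART-Seq Stranded kit, per the labels' protocols. The authors deposited a table of raw read counts per gene for all libraries. The submitters' processing notes name FastQC 0.11.9, STAR, HTSeq, DESeq2 and GRCm39; whether the counting used the strand is not given in the sources used here. Groups and replicate numbers came from the labels.

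Genes were tested with edgeR 4.0.16 (R 4.3.3): TMM scaling, filterByExpr with a minimum count of 10, the quasi-likelihood F test and Benjamini-Hochberg adjustment over all genes tested (FDR under 0.05), in 12 comparisons. The code was tested on simulated data. Total RNA and RIP were each fitted over their 12 libraries, RIP over RNA and its change by treatment over 24, and anti-HuR against IgG over 15 with treatment as a covariate. CPM are on 1 TMM scale over all 27 libraries, and intervals are at 95%. Of the 55483 gene IDs, 51731 (93.2%) matched GENCODE M39, which gave coordinates, exon lengths and UTRs.

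Replicate numbers paired the samples: over 8610 genes, deviations of same-numbered libraries from their group means correlated at 0.30 to 0.66 in RNA, 0.31 to 0.74 in RIP and 0.34 to 0.62 between RIP and RNA, in 12 of 12 pairs each. No 2 libraries of a group agreed within sampling noise (36 pairs).

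Alternatives were RLE size factors, DESeq2 1.42.0, no filter, the replicate block, replicates 1 and 2 or 3 and 4 alone, each library left out, and library totals without TMM (added after seeing the data). The 8 genes and the pathway lists were chosen with earlier results of these data known. All 8 were tested in every comparison and each called one is named, while values of some that were not called are left out. From each list, the rule picked up to 4 called genes with the largest absolute log2 fold change. Not every picked gene or comparison of the lists is printed. The 3 genes most correlated with Tnf (mean of at least 5 CPM, no predicted symbol) are also named.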

Additional observations from a re-analysis of the deposited data

Results flagged for a closer look

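The change of anti-HuR recovery over total RNA by LPS differed from 0 for Tnf by the test of the difference itself (-3.95, edgeR FDR 2.45e-05): the RIP level did not follow the rise in RNA. Of 48 groups of 4 libraries examined for 1 library far from the others, 3 had a gap to the nearest library, as a share of the group's range, above Dixon's critical value. Chance gives about 1 in 20 such groups. Tnfrsf1a was highest in RIP DMSO replicate 1 (34.7 CPM against 23.9 to 24.1), with a gap of 0.982 of the range. Adam17 was highest in RNA LPS with TM7nox replicate 1 (139.6 CPM against 93.8 to 99.6), with a gap of 0.873. Without that library, Adam17 in total RNA was called lower with TM7nox than in DMSO (-0.32, FDR 0.0306), as it was in replicates 3 and 4 alone (-0.27, FDR 0.0206) and with library totals (-0.54, FDR 0.0129), beside -0.22 (FDR 0.191) over all libraries. Adam17 was lowest in RIP LPS replicate 2 (60.2 CPM against 68.3 to 69.8), with a gap of 0.843.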

How the results depend on the processing

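Of 1608 values of the 8 genes under alternatives, 1482 kept direction and side of the threshold, 57 lost a call, 20 gained one and 49 changed sign; the cause was not tested. The number of the 8 genes called in total RNA for TM7nox against LPS was 1; it was 2 with no filter, 2 with the replicate block, 0 in replicates 1 and 2 alone, 2 in replicates 3 and 4 alone, and 0 to 1 with single libraries left out. In the RIP, the 2 called for TM7nox against LPS became 1 in replicates 1 and 2 alone, and the 6 called for TM7nox against DMSO became 2 with library totals and 3 in replicates 1 and 2 alone. The 1 called for the change of recovery by LPS became 0 in replicates 1 and 2 alone.

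The replicate block, which follows the pairing of the libraries, called Tnfrsf1a for TM7nox against LPS in RNA (-0.28, FDR 0.0147) and Adam17 (0.39, FDR 0.0154) and Tradd (0.44, FDR 0.0337) for LPS against DMSO in the RIP, and changed no other call of the 8 genes. Over all genes it moved the calls for TM7nox against LPS from 1704 to 3091 in RNA and from 2212 to 4577 in the RIP, and for the change of recovery by LPS from 6 to 50 and by TM7nox from 1 to 2.

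Other all-gene counts that moved by over 1.5 times were, in replicates 1 and 2 alone, 1668 (from 5190) for LPS and 2246 (from 5850) for TM7nox against DMSO in RNA, 168 for TM7nox against LPS in RNA, 3392 (from 6090) for LPS in the RIP and 789 for TM7nox against LPS in the RIP. In replicates 3 and 4 alone they were 3489 for TM7nox against LPS in RNA and 1070 in the RIP. For the change of recovery by LPS, library totals gave 27, DESeq2 66, no filter 49, replicates 1 and 2 alone 0, replicates 3 and 4 alone 13, and omission of RNA DMSO replicate 1 gave 11. For the change by TM7nox (1 call), library totals gave 2, DESeq2 3, no filter 5, replicates 1 and 2 or 3 and 4 alone 0, and omission of RIP TM7nox replicate 1 or RIP LPS replicate 3 gave 2 and 3.

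Library totals moved the median of all genes to -0.32 and -0.33 in RNA (LPS and TM7nox against DMSO), -0.63 and -0.63 in the RIP, -0.72, -1.06 and -1.07 for RIP over RNA in DMSO, LPS and TM7nox, -0.21 for the change by LPS and -1.02 against IgG. The share of higher calls was then 27.7% and 29.0% in RNA, 16.8% and 18.2% in the RIP, 34.7%, 25.8% and 29.6% for RIP over RNA and 25.8% against IgG. RLE size factors gave medians of 0.19, 0.11 and 0.13 for RIP over RNA and 0.13 against IgG.

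With library totals the sign changed for Tradd (-0.071) and Ripk1 (-0.10) in RNA by LPS and Tradd (-0.035) in RNA with TM7nox against DMSO. It changed for Adam17 (-0.23), Traf2 (-0.30) and Tradd (-0.17) in the RIP by LPS, and for Adam17 (-0.40), Traf2 (-0.056), Tradd (-0.50) and Ripk1 (-0.0085) with TM7nox against DMSO. It also changed for Tnfrsf1b over RNA in LPS (-0.95), where the value was called, Tnf over RNA with TM7nox (-0.40), Tnf against IgG (-0.93), and the change by LPS of Tnfrsf1b (-0.0037), Rhbdf2 (-0.19) and Tradd (-0.10). Tnfrsf1b was also called lower over RNA in DMSO (-0.95) and with TM7nox (-1.04) and against IgG (-1.30).

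In replicates 1 and 2 alone the sign changed for Adam17 in RNA by LPS (0.026), Tradd in the RIP with TM7nox against DMSO (-0.14), Tnfrsf1b over RNA in LPS (-0.042) and the change by TM7nox of Adam17 (0.073). In replicates 3 and 4 alone it changed for Tradd in RNA by TM7nox (-0.083), the change by LPS of Rhbdf2 (-0.0023) and the change by TM7nox of Traf2 (0.11). Tnfrsf1b over RNA was -0.017 in LPS with no filter and 0.18 with TM7nox under RLE size factors and 0.18 in DESeq2, and the change by TM7nox of Adam17 was 0.00085 and 0.0034 there.

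With single libraries left out, 9 values changed sign in at least 1 case and ranged as follows: Tradd in RNA by TM7nox from -0.062 to 0.19, Tradd in the RIP with TM7nox against DMSO from -0.033 to 0.22, Tnfrsf1b over RNA in LPS from -0.020 to 0.13 and with TM7nox from -0.13 to 0.052. The change by LPS ranged from -0.036 to 0.19 for Rhbdf2 and from -0.030 to 0.33 for Tradd, and the change by TM7nox from -0.12 to 0.080 for Adam17 and from -0.16 to 0.029 for Traf2. Tnf against IgG ranged from -0.60, without the DMSO IgG library, to 1.28, without the LPS IgG library, and was -0.069 without RIP TM7nox replicate 1. Depth limits Tradd most (lowest count 34 reads), and the single IgG library per treatment limits every comparison with IgG.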

Other observations

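The anti-HuR recovery over total RNA of the pathway genes around Tnf is given by list, with no test between the lists; the 2 neighbouring ligands were not called in any treatment. Of the 8 RNA-binding regulators, 6 were called higher in the RIP in each treatment (37%, 32.9% and 35.2% of all genes in DMSO, LPS and LPS with TM7nox), among them Elavl1, which encodes HuR itself (5.00 in DMSO, 5.07 in LPS and 5.38 with TM7nox), and Khsrp, a decay-promoting protein (3.73, 4.03 and 4.51). Of the same 8, 0, 1 and 1 were called lower, Hnrnpd in LPS (-0.57) and Zc3h12a with TM7nox (-0.64), both named after their values were seen. The list's median was 2.06, 1.49 and 1.73, beside 0.04, -0.06 and -0.09 over all genes. Of the 14 receptor complex and kinase genes, 1 was called higher in each treatment and 5, 5 and 7 lower, where 33.4%, 30.8% and 34.8% of all genes were called lower, with Sharpin, a subunit of the linear ubiquitin ligase, at -1.86, -1.42 and -1.61. Map3k7 (TAK1) was the 1 called higher, at 1.01, 0.83 and 0.92.

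Of the 8 brakes, 2, 3 and 3 were called higher and 4, 3 and 4 lower, with a median of -0.51, -0.50 and -0.64, beside the shares of all genes given above and all-gene medians of 0.04, -0.06 and -0.09. The counts in LPS, 3 higher and 3 lower, lie near those shares (32.9% and 30.8%). Nfkbia (2.06, 1.37 and 1.83) was above total RNA, and Tnip2 (-1.35, -1.30 and -1.61) and Tnip1 (-1.21, -0.81 and -1.39) were below it.

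The death arm held genes on both sides of total RNA. Cflar stood at 3.92, 3.79 and 4.32 and Casp8 at 2.34, 1.98 and 2.33, while Ripk3, the kinase that activates Mlkl, stood at -1.70, -1.46 and -1.77. Among the shedding genes, Furin (3.22, 2.70 and 3.21) and Adam10 (1.29, 1.26 and 1.80) were recovered above RNA, as Rhbdf2 was, and Frmd8, which stabilises the iRhom and Adam17 complex, was below it (-0.94, -0.67 and -0.97). In LPS cells Furin reached 3346 ± 794 CPM in the RIP beside 515 ± 80.7 CPM in total RNA (SD, n = 4).

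For the change of recovery, the smallest edgeR FDR among these 41 genes was 0.563 for LPS and 0.871 for TM7nox, so none passed the threshold that Tnf passed for LPS.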
